A study of Mus musculus with 20 samples.

Results

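Expression of 10 genes of glycolysis and the hypoxia response was followed in mouse skin inflamed by IL-23 and treated with antagonists of Toll-like receptors (TLRs). The genes were Hif1a, Slc2a1, Hk2, Pfkp, Pfkfb3, Pgk1, Ldha, Vegfa, Adm and Slc16a3, a set named with earlier results of these data known. Every probe set whose annotation gave 1 of these symbols and no other was taken, which found 22 of the 45101 probe sets of the array for 10 of 18194 genes with a symbol of their own. All 22 passed the filter on low and flat values described with the processing, so that no gene was lost. As the lowest value in the table was 2.02, only its limit on SD could remove a probe set. Passing it therefore does not show that a gene was expressed.

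Glycolysis breaks glucose down to pyruvate, and lactate dehydrogenase turns pyruvate into lactate when oxygen is short or demand is high. The subunit HIF-1α, product of Hif1a, is destroyed after prolyl hydroxylation when oxygen is plentiful. In low oxygen it pairs with ARNT and binds a short core motif near genes for glucose uptake, glycolytic enzymes, lactate export, vessel growth and vasodilation. Proliferating keratinocytes and activated leukocytes are known to use glycolysis heavily, and Hif1a transcript can also rise through inflammatory signalling. These statements are background and were not measured here: no array reads oxygen, protein or flux.

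The 4 groups held 5 female C57BL/6 mice each, 6 weeks old at purchase and housed for 1 week before the start. All groups but the naïve one had IL-23, which maintains Th17 lymphocytes, injected into the dermis of the back on days 1 to 4 (3 µg daily). From day 4 to day 6 these mice then received, subcutaneously and away from that site, IMO-8400 at 15 mg/kg, IMO-3100 at 15 mg/kg, or no antagonist (called saline by the labels and phosphate-buffered saline by the methods). The fourth group was naïve, with neither IL-23 nor an antagonist in its labels. IMO-8400 is an oligonucleotide antagonist of TLR7, TLR8 and TLR9, and IMO-3100 one of TLR7 and TLR9, and their sequences were not used here. Skin was taken on day 7 at full thickness, 1 array per mouse, so replicates are separate mice. The sources used here give no injection for naïve mice, so IL-23 and the act of injecting cannot be told apart between saline and naïve skin.

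The stretches of promoter below are shown because HIF recognises the core ACGTG or GCGTG and each of these 6 genes holds it there. Hk2, Pfkp and Pgk1 hold it in the same stretch too and are not shown. Each is the 160 bases just before the transcription start of RefSeq on the mouse build GRCm38.p6, read 5′ to 3′ on the strand of the gene. Capitals mark ACGTG or GCGTG on either strand, so that a match on the other strand reads CACGT or CACGC, and CACGTG holds both strands' matches in overlap. For Pfkfb3, Ldha and Vegfa a second annotated start was also searched, and for Hif1a, Ldha and Slc16a3 the annotation has transcripts that begin further upstream.
Hif1a, chr12:73907707-73907866, plus strand: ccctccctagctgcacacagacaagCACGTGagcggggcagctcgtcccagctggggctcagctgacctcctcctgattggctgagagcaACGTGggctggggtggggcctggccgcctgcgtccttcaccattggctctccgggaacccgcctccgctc
Slc2a1, chr4:119108585-119108744, plus strand: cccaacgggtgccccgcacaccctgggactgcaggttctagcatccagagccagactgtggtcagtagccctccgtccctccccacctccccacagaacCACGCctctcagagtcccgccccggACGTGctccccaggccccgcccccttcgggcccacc
Pfkfb3, chr2:11553930-11554089, minus strand: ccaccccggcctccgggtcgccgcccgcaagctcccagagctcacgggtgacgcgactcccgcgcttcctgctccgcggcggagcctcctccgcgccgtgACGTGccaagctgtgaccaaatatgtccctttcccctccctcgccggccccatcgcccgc
Ldha, chr7:46845644-46845803, plus strand: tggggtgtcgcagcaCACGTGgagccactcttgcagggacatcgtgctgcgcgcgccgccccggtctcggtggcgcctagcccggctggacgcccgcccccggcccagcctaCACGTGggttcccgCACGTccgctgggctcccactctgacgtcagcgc
Slc16a3, chr11:120948907-120949066, plus strand: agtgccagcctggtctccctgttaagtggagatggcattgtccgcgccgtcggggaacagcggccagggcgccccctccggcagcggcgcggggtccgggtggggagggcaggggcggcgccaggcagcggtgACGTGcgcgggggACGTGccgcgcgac
Adm, chr7:110627497-110627656, plus strand: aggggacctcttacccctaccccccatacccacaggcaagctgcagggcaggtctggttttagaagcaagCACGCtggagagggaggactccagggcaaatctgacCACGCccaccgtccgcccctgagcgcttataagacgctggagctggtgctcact

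In windows of 250 bases before to 50 after the start, ACGTG lay in 8 of the 10 genes (9 of their 13 windows), all but Pfkp and Adm. Of all RefSeq promoter windows, 19.6% held it. GCGTG lay in 6 of the 10 genes (7 of 13 windows), Slc2a1, Pfkp, Pfkfb3, Ldha, Vegfa and Adm, and in 32.4% of all windows. Slc16a3 had 2 copies of ACGTG, the nearer ending 10 bases before the start. Ldha had the overlapping CACGTG at 2 places, Hif1a at 1, and Pfkfb3 at 1 in the window of its second start. A match of these letters is a description and not a site of binding.

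Expression values are GCRMA values on the log2 scale as deposited, where 1 unit is a doubling of signal. A probe set's level can be compared between mice but not with that of another probe set. The lowest value in the table was 2.02 and the highest 15.79, and array medians lay between 6.09 and 6.29. The table carries no call of present or absent, and a group with no array at 3 or above is called near background. Differences were tested in limma on 30960 probe sets with Benjamini-Hochberg adjustment (FDR). A gene was called up- or down-regulated at FDR under 0.05 and fold change (FCH) over 2, and each gene was counted at its probe set with the highest mean.

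The mean of 5 keratinocyte markers lay between 13.85 and 14.30 in all 20 mice. With saline against naïve, 2 of these 5 were higher by FDR and 1 was lower (23.4% and 23.5% of all genes). Against saline, 2 were higher by FDR with IMO-8400 and 1 with IMO-3100 (16% and 12.2% of all genes). By FDR 0 were lower with either, and 1 was with each at an unadjusted p under 0.05 in limma. Markers of other tissues differed between groups too. The mean of 12 markers of growing (anagen) hair follicles, keratins and other hair proteins, lay between 2.98 and 7.02 with IMO-8400, 2.84 and 3.07 with IMO-3100, 2.85 and 3.19 with saline, and 3.73 and 13.67 in naïve mice. All 12 of 12 were down-regulated in saline against naïve skin, and naïve mice 1 and 2 had the highest means (13.67 and 12.52). With saline against naïve, 8.94% of all genes were up-regulated and 8.51% down-regulated. Up-regulated were 5 of 6 T cell markers, 2 of 2 tested neutrophil markers, 2 of 5 macrophage markers and 2 of 7 proliferation markers. Of 6 neutrophil markers listed, 4 had a probe set, and those of the 4 left untested varied too little to pass the filter. Down-regulated were 5 of 5 adipocyte markers and 2 of 9 muscle markers, of which 7 were lower by FDR alone. Of the proliferation markers, 5 of 7 were down-regulated with each antagonist against saline. Their mean per mouse lay between 8.56 and 9.51 with IMO-8400, 8.84 and 9.10 with IMO-3100, 10.18 and 10.73 with saline, and 9.06 and 10.74 in naïve mice. In bulk skin, fewer cells of a type and less RNA per cell cannot be told apart, and the part of these tissue shifts in the results below was not tested beyond the alternatives named.

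In skin given IL-23 and saline, 1 of the 10 genes was up-regulated against naïve skin, the lactate exporter Slc16a3, and none was down-regulated. Among all 13909 genes tested, 8.94% were up-regulated and 8.51% down-regulated, so that 1 of 10 is near that background. Most of the members moved by less than FCH 2. By FDR alone, a count added after the values were seen, 6 of 10 were higher (Hif1a, Slc2a1, Pfkp, Pfkfb3, Pgk1 and Slc16a3) against 23.4% of all genes, and 0 of 10 were lower against 23.5% of all genes. At an unadjusted p under 0.05 limma also gave 0 lower. The median log2 fold change of the 10 was 0.38 and that of all genes -0.01.

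With each antagonist, Slc16a3 and Adm were down-regulated against saline and none of the 10 was up-regulated. With IMO-8400, 2 of 10 were down-regulated where 4.16% of all genes were, and 0 were up-regulated where 4.57% of all genes were. With IMO-3100, 2 of 10 were down-regulated where 4.62% of all genes were, and 0 were up-regulated where 2.65% of all genes were. At an unadjusted p under 0.05 limma gave 0 genes higher with IMO-8400 and 1, Pfkfb3, with IMO-3100. By FDR alone, 5 of 10 were lower with IMO-8400 (Hif1a, Pfkp, Pgk1, Adm and Slc16a3, against 14.4% of all genes) and 8 of 10 with IMO-3100 (all but Pfkfb3 and Vegfa, against 17.8% of all genes). None was higher by FDR alone with either antagonist, against 16% and 12.2% of all genes. Leaving out 1 array in turn moved these counts between 4 and 6 with IMO-8400 and between 6 and 8 with IMO-3100, with Pfkp lost from the IMO-8400 genes without 8 of the 10 arrays concerned, and Pgk1 and Hif1a from the IMO-3100 genes without several. The median log2 fold change of the 10 was -0.24 with IMO-8400 and -0.41 with IMO-3100, where the medians of all genes were 0.00 and -0.02. The 2 antagonist comparisons share the saline arrays with each other and with the comparison with naïve skin, so their opposite signs are not independent.

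Over the 22 probe sets the counts were 3 up-regulated with saline against naïve (Hif1a 1431981_at, Slc2a1 1426600_at and Slc16a3 1449005_at), where 7.58% of all probe sets were. With IMO-8400 5 were down-regulated (background 3.59%) and with IMO-3100 6 (background 3.73%), spread over Hif1a, Pfkp, Adm and Slc16a3. Probe sets of 1 gene share its transcript and are not independent of each other.

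**Figure D1:**
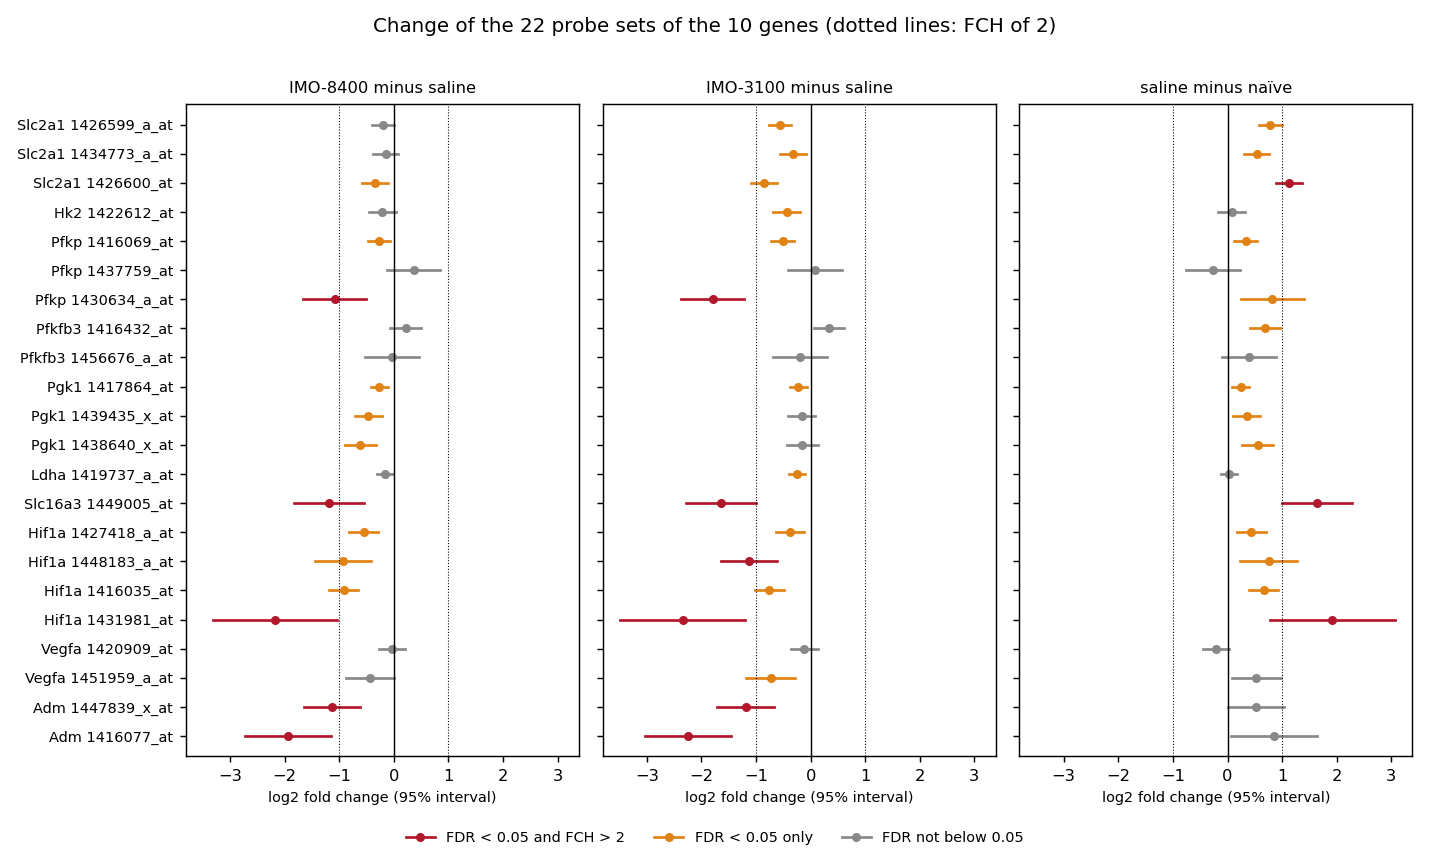
Log2 fold change (x axis) with 95% limma interval for each of the 22 probe sets (rows) in IMO-8400 minus saline, IMO-3100 minus saline and saline minus naïve, n = 5 mice a group. Most points lie left of 0 in both antagonist panels and right of 0 in the saline panel, the 2 Adm probe sets pass both thresholds with the antagonists without passing the FDR in the saline panel, and Pfkfb3 1416432_at lies right of 0 in all 3.

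Slc16a3 encodes MCT4, the monocarboxylate transporter through which glycolytic cells export lactate, and had 1 probe set (1449005_at). Its log2 values were 10.16, 10.20, 10.25, 10.19 and 10.60 with IMO-8400. They were 9.66, 9.96, 10.39, 9.33 and 9.79 with IMO-3100. They were 11.22, 11.65, 11.84, 11.24 and 11.36 with saline, and 8.36, 9.84, 10.36, 9.89 and 10.64 in naïve mice. Every saline mouse lay above every mouse of the other 3 groups. Means were 10.28 ± 0.18 with IMO-8400, 9.83 ± 0.39 with IMO-3100, 11.46 ± 0.27 with saline and 9.82 ± 0.88 in naïve skin (SD, n = 5 each). With saline it was 3.12-fold higher than in naïve skin (log2 1.64 ± 0.30 SE, limma FDR 0.000336). It fell with IMO-8400 by FCH 2.27 (log2 -1.18, FDR 0.00826) and with IMO-3100 by FCH 3.11 (log2 -1.64, FDR 0.00111). Those falls amounted to 71.8% of the saline-naïve difference with IMO-8400 and 99.6% with IMO-3100, as a description. The naïve mouse with the most hair marker signal, mouse 1, was the lowest for Slc16a3, and with the hair mean as a covariate the saline-naïve difference was 1.03 and missed the FDR (0.0554). Mouse 1 was also the lowest naïve mouse for the marker means of T cells (6.35), macrophages (11.12), muscle (13.68), endothelium (8.01) and fibroblasts (13.41). It was the highest for proliferation markers (10.74). The part of each of these in its Slc16a3 value was not tested.

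**Figure D2:**
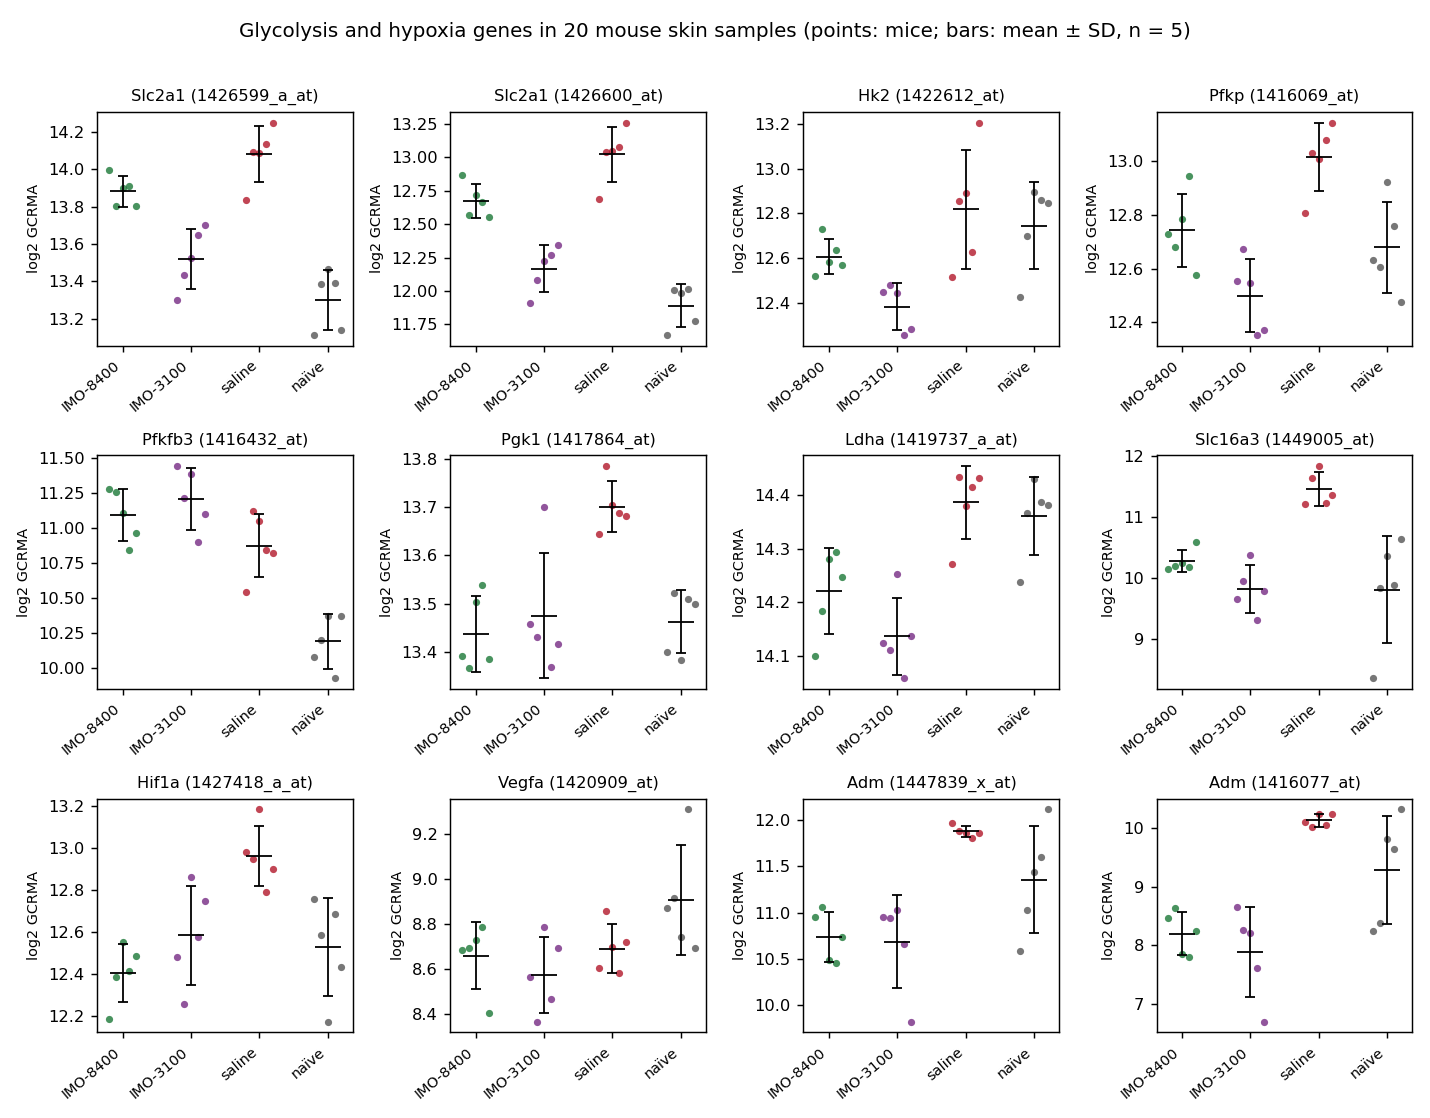
Log2 GCRMA level (y axis) of the 10 genes in each of the 20 mice, at the probe set with the highest mean and at further probe sets of Slc2a1 and Adm; points are mice, bars are mean ± SD of 5, and each panel has its own scale. Saline mice stand above all others for Slc16a3 (11.22 to 11.84), IMO-8400 mice stay above IMO-3100 mice for Slc2a1, and Pfkfb3 stays above its naïve values in all 3 IL-23 groups.

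Slc2a1 encodes GLUT1, the glucose transporter of basal keratinocytes and many other cells, and its 3 probe sets moved alike. At 1426600_at the values were 12.87, 12.57, 12.71, 12.67 and 12.56 with IMO-8400. They were 11.91, 12.08, 12.23, 12.27 and 12.35 with IMO-3100. They were 12.69, 13.04, 13.05, 13.08 and 13.26 with saline, and 11.67, 12.01, 11.99, 12.02 and 11.78 in naïve mice. IMO-8400 mice all lay above IMO-3100 and naïve mice, as saline mice did, and overlapped with saline mice. The log2 difference saline minus naïve was 1.13 ± 0.11 (SE, FCH 2.19, FDR 6.26e-07). It was 0.78 (FDR 8.46e-06) at 1426599_a_at, the probe set with the highest mean, and 0.53 (FDR 0.000913) at 1434773_a_at, so only 1426600_at passed FCH 2. Against saline, IMO-3100 differed by log2 -0.86, -0.56 and -0.32 in the same order of probe sets, all past the FDR and under FCH 2. The -0.32 (FDR 0.0395) missed it with a common 75th percentile (0.0764), with only the compared groups in the model (0.0631), and without saline mouse 2, 3, 4 or 5 or IMO-3100 mouse 1, 2 or 3 (0.054 to 0.105). With IMO-8400 the differences from saline were -0.35 (FDR 0.0274) at 1426600_at, -0.20 (FDR 0.141) at 1426599_a_at and -0.15 (FDR 0.336) at 1434773_a_at, and the first missed the FDR with quantile normalization (0.0539) and without saline mouse 2, 3, 4 or 5 or IMO-8400 mouse 2 or 5 (0.0513 to 0.0727). At 1426600_at IMO-8400 mice thus kept 1.72-fold the naïve level (FDR 0.00015), while IMO-3100 mice had 1.21-fold (FDR 0.0757).

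Hif1a had 4 probe sets, and all 4 were higher with saline than in naïve skin and lower with each antagonist by FDR. At 1416035_at the values were 10.42, 10.72, 11.00, 10.83 and 10.89 with IMO-8400. They were 10.91, 10.88, 11.12, 10.79 and 10.98 with IMO-3100. They were 11.75, 11.83, 11.84, 11.37 and 11.66 with saline, and 11.29, 11.02, 10.88, 11.18 and 10.77 in naïve mice. Saline mice lay above all mice of the other groups here. The log2 differences at this probe set were -0.92 for IMO-8400 minus saline (FDR 8.31e-05), -0.76 for IMO-3100 minus saline (FDR 0.000468) and 0.66 for saline minus naïve (FDR 0.000381). The size of the change depended on the probe set. At 1427418_a_at, the probe set with the highest mean, it was -0.55, -0.38 and 0.43 in the same order, and none passed FCH 2. The -0.38 (FDR 0.033) missed the FDR with a common 75th percentile (0.0649) and without saline mouse 1, 2 or 3 or IMO-3100 mouse 1, 2 or 4 (0.0511 to 0.0931). At 1448183_a_at it was -0.92, -1.14 and 0.75, of which the IMO-3100 difference was past FCH 2. At 1431981_at, with means of 4.11 with IMO-8400, 3.94 with IMO-3100, 6.28 with saline and 4.36 in naïve skin, it was -2.18, -2.35 and 1.92, all past both thresholds, with saline mice spread from 4.50 to 8.09. Averaged over its probe sets, Hif1a was down-regulated past both thresholds with IMO-8400 (log2 -1.14, FDR 0.00121) and with IMO-3100 (log2 -1.15, FDR 0.00131). Without saline mouse 4, the lowest of its group at 1448183_a_at (11.45), that probe set also passed both thresholds with saline against naïve (log2 1.02, FDR 0.000385) and with IMO-8400 against saline (log2 -1.19, FDR 0.000341). Its saline-naïve difference missed the FDR without saline mouse 1 (0.0529), 2 (0.0557) or 3 (0.051) and with only the compared groups in the model (0.0801). No probe set of Hif1a differed between antagonist and naïve skin by FDR, with log2 differences from -0.26 to -0.12 for IMO-8400 and from -0.42 to 0.06 for IMO-3100.

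The enzymes of glycolysis did not move as one. Hk2, the inducible hexokinase that traps glucose as glucose 6-phosphate, had values of 12.52 to 12.73 with IMO-8400, 12.25 to 12.48 with IMO-3100, 12.51 to 13.21 with saline and 12.43 to 12.90 in naïve mice. Between saline and naïve skin no difference was found (log2 0.07, 95% interval -0.17 to 0.32, FDR 0.63). It was lower with IMO-3100 than with saline by FDR (log2 -0.44, FDR 0.0108). With IMO-8400 the difference was -0.21 (FDR 0.185).

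Pfkp, the platelet-type subunit of phosphofructokinase at the committed step, had 3 probe sets that disagreed. At 1430634_a_at the values were 6.15, 6.26, 6.90, 6.86 and 6.65 with IMO-8400. They were 5.33, 5.89, 6.76, 5.81 and 5.49 with IMO-3100. They were 6.77, 7.98, 7.66, 7.59 and 8.23 with saline, and 7.04, 6.59, 7.07, 7.06 and 6.37 in naïve mice. Here Pfkp fell with IMO-3100 by FCH 3.45 (FDR 0.000268, saline mice all above IMO-3100 mice) and with IMO-8400 by FCH 2.11 (FDR 0.00758). The IMO-8400 call was lost at FCH 2 without saline mouse 2 (log2 -0.99), saline mouse 5 (-0.93) or IMO-8400 mouse 1 (-0.97). At 1416069_at, the probe set with the highest mean, the differences were -0.27 with IMO-8400 (FDR 0.0482), -0.51 with IMO-3100 (FDR 0.00135) and 0.33 with saline against naïve (FDR 0.0105). The -0.27 missed the FDR with quantile normalization (0.083), the mean of the probe sets (0.0689) and the hair covariate (0.0538), and without saline mouse 2, 3, 4 or 5 or IMO-8400 mouse 1, 2, 3 or 5 (0.0641 to 0.113). The 0.33 missed it with the mean of the probe sets (0.0783), the hair covariate (0.083) and without naïve mice 1 and 2 (0.0515). At 1437759_at none passed the FDR, at 0.36, 0.08 and -0.27.

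Pfkfb3 makes fructose 2,6-bisphosphate, the strongest activator of phosphofructokinase, and at its main probe set averaged above saline with both antagonists, short of the FDR. Its values at 1416432_at were 11.28, 11.26, 11.11, 10.85 and 10.97 with IMO-8400. They were 11.45, 11.21, 11.39, 10.90 and 11.10 with IMO-3100. They were 10.54, 11.12, 11.05, 10.84 and 10.82 with saline, and 10.07, 10.20, 10.37, 9.92 and 10.37 in naïve mice. All 15 mice given IL-23 lay above all 5 naïve mice. Against naïve skin the log2 differences were 0.90 with IMO-8400 (FCH 1.87, FDR 0.000193), 1.02 with IMO-3100 (FCH 2.03, FDR 3.68e-05) and 0.69 with saline (FCH 1.61, FDR 0.000499). Against saline they were 0.22 with IMO-8400 (95% interval -0.06 to 0.50, FDR 0.235) and 0.34 with IMO-3100 (0.06 to 0.61, FDR 0.0696). The IMO-3100 call against naïve sits at the FCH threshold and was lost without naïve mouse 1 (log2 0.99), naïve mouse 4 (0.96), IMO-3100 mouse 1 (0.96) or IMO-3100 mouse 3 (0.98), each with the FDR still met. Its other probe set, 1456676_a_at, lay below 3 in all but 2 mice.

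Pgk1, the first ATP-making enzyme of the pathway, was high and tight at 1417864_at: 13.37 to 13.54 with IMO-8400, 13.37 to 13.70 with IMO-3100, 13.64 to 13.79 with saline and 13.38 to 13.52 in naïve mice. Saline was higher than naïve by log2 0.24 (FDR 0.0132), and IMO-8400 and IMO-3100 were lower than saline by FDR with differences of -0.26 (FDR 0.0122) and -0.23 (FDR 0.0284). The IMO-3100 value missed the FDR with a common 75th percentile (0.0787), the mean of the probe sets (0.183), and without saline mouse 2 or 3 or IMO-3100 mouse 1, 2, 4 or 5 (0.0502 to 0.0733), and the saline-naïve value with the hair covariate (0.194). Its 2 other probe sets, whose suffix _x marks probes shared with other sequences, gave -0.61 and -0.46 with IMO-8400 (both past the FDR), and -0.15 and -0.17 with IMO-3100 (neither past it). Ldha, which turns pyruvate into lactate, was between 14.06 and 14.43 in all 20 mice. It did not differ by FDR between saline and naïve skin (log2 0.03, 95% interval -0.12 to 0.17), and its log2 difference from saline was -0.17 with IMO-8400 (FDR 0.0762) and -0.25 with IMO-3100 (FDR 0.0115). Pgk1 and Ldha have processed pseudogenes that such probes may also read, which was not tested.

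The secreted members parted from each other. Adm encodes adrenomedullin, a vasodilating peptide of keratinocytes and endothelium. At 1416077_at its values were 8.47, 8.65, 7.86, 7.79 and 8.24 with IMO-8400. They were 8.66, 8.27, 8.21, 7.61 and 6.69 with IMO-3100. They were 10.10, 10.03, 10.24, 10.05 and 10.25 with saline, and 8.25, 8.38, 9.82, 9.64 and 10.33 in naïve mice. Saline mice were the tightest group and lay above all antagonist mice, while naïve mice spread from the antagonist level to just above the saline level. Adm was 3.83-fold lower with IMO-8400 than with saline (log2 -1.94 ± 0.38 SE, FDR 0.00124) and 4.75-fold lower with IMO-3100 (log2 -2.25 ± 0.38 SE, FDR 0.000505). The saline-naïve difference was 0.85 and missed the FDR (0.0724). At 1447839_x_at the differences were -1.14 with IMO-8400 (FDR 0.00269), -1.19 with IMO-3100 (FDR 0.00219) and 0.52 with saline against naïve (FDR 0.0927). This probe set, which has the higher mean, has probes that match other sequences, and its IMO-3100 call rests on IMO-3100 mouse 5 (9.82): without it the difference was -0.98 (FDR 0.00559).

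With both antagonists Adm lay below its naïve mean. At 1416077_at the log2 difference from naïve skin was -1.09 with IMO-8400 (FDR 0.0526) and -1.40 with IMO-3100 (FCH 2.64, FDR 0.0103). With only the compared groups in the model the IMO-3100 difference missed the FDR (0.0829). Naïve mice 1 and 2, the lowest of their group for Adm at 8.25 and 8.38, were those with the highest hair marker means. Without these 2 mice the IMO-8400 difference was -1.73 (FDR 0.00196), and in the other 3 naïve mice Adm lay between 9.64 and 10.33. Without naïve mice 1 and 2 the saline-naïve difference was 0.20 (FDR 0.636), with the hair mean as a covariate it was -0.07 (FDR 0.928), and without naïve mouse 5 it was 1.11 and passed the FDR (0.0204).

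**Figure D3:**
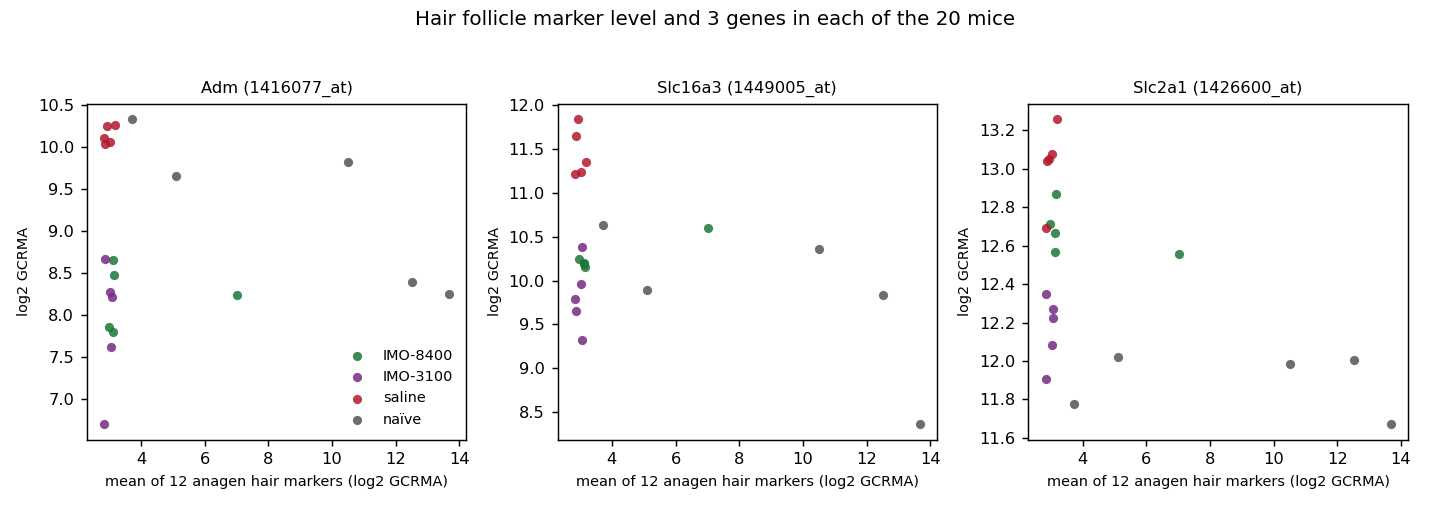
Log2 GCRMA level of Adm, Slc16a3 and Slc2a1 (y axes) against the mean of 12 anagen hair markers (x axis) in each of the 20 mice, coloured by group. Hair marker means above 10 occur in 3 naïve mice, 2 of which have Adm at 8.25 and 8.38 where the other naïve mice lie at 9.64 or above. For Slc2a1, IMO-8400 and saline mice overlap and lie above IMO-3100 and naïve mice, which overlap with each other.

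Vegfa, the endothelial growth factor and textbook target of HIF-1α, was not called in any comparison. At 1420909_at it had 8.41 to 8.79 with IMO-8400, 8.37 to 8.79 with IMO-3100, 8.58 to 8.86 with saline and 8.69 to 9.31 in naïve mice. The difference saline minus naïve was -0.22 (95% interval -0.46 to 0.03, FDR 0.136). Those against saline were -0.03 (-0.27 to 0.21) with IMO-8400 and -0.12 (-0.36 to 0.13) with IMO-3100, so changes of FCH 2 lay outside all 3 intervals. With IMO-3100 it was lower than in naïve skin by FDR (-0.33, FDR 0.0396), which was missed in 6 of the alternatives with all arrays or without naïve mice 1 and 2 (0.0543 to 0.148), and without naïve mouse 2 or 4 or IMO-3100 mouse 1, 2 or 4 (0.0643 to 0.105). At 1451959_a_at, with means of 5.30 with IMO-8400, 5.01 with IMO-3100, 5.74 with saline and 5.22 in naïve skin, the IMO-3100 difference from saline was -0.73 (FDR 0.0165) and that of saline against naïve 0.53 (FDR 0.0506).

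Between the antagonists, given at the same dose and days, none of the 10 genes was called in either direction, where 0.381% of all genes were higher and 0.137% lower with IMO-8400. At an unadjusted p under 0.05 limma gave 2 higher (Slc2a1 and Pfkp) and 0 lower. All 22 probe sets were compared and their FDR was taken over all probe sets tested. By FDR alone 1 of 10 genes was higher (2.33% of all genes) and 0 lower (1.45% of all genes). Slc2a1 was the member that differed, higher with IMO-8400 than with IMO-3100 by 0.51 ± 0.11 at 1426600_at (SE, 95% interval 0.27 to 0.74, FDR 0.0222) and by 0.36 ± 0.10 at 1426599_a_at (0.15 to 0.57, FDR 0.0491). All 5 IMO-8400 mice lay above all 5 IMO-3100 mice at both. At Slc2a1 1434773_a_at the difference was 0.17 (-0.06 to 0.40, FDR 0.395), and the groups overlapped. The 2 groups did not overlap for Hk2 either (0.23, FDR 0.275), and the share of all probe sets parted in this way was not counted. At Slc2a1 1426599_a_at the FDR was missed without any 1 of the 10 antagonist mice (0.0592 to 0.125), and at 1426600_at without IMO-3100 mouse 3 (0.0518) or IMO-8400 mouse 1 (0.0663).

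For the other genes the intervals of the difference IMO-8400 minus IMO-3100 were narrow at some probe sets, as for Pgk1 1417864_at (-0.19 to 0.12), Ldha (-0.06 to 0.23) and Vegfa 1420909_at (-0.16 to 0.33). They were wide for Slc16a3 (-0.18 to 1.10), Adm 1416077_at (-0.47 to 1.10) and Hif1a 1431981_at (-0.97 to 1.31), where a difference of FCH 2 cannot be told from none. Pgk1 1438640_x_at (-0.46, FDR 0.0619) ran opposite to Slc2a1, and Pfkp 1430634_a_at (0.71, FDR 0.141) ran with it, both short of the FDR. IMO-8400 is aimed at TLR8 besides TLR7 and TLR9, and the design has no arm that separates that.

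**Figure D4:**
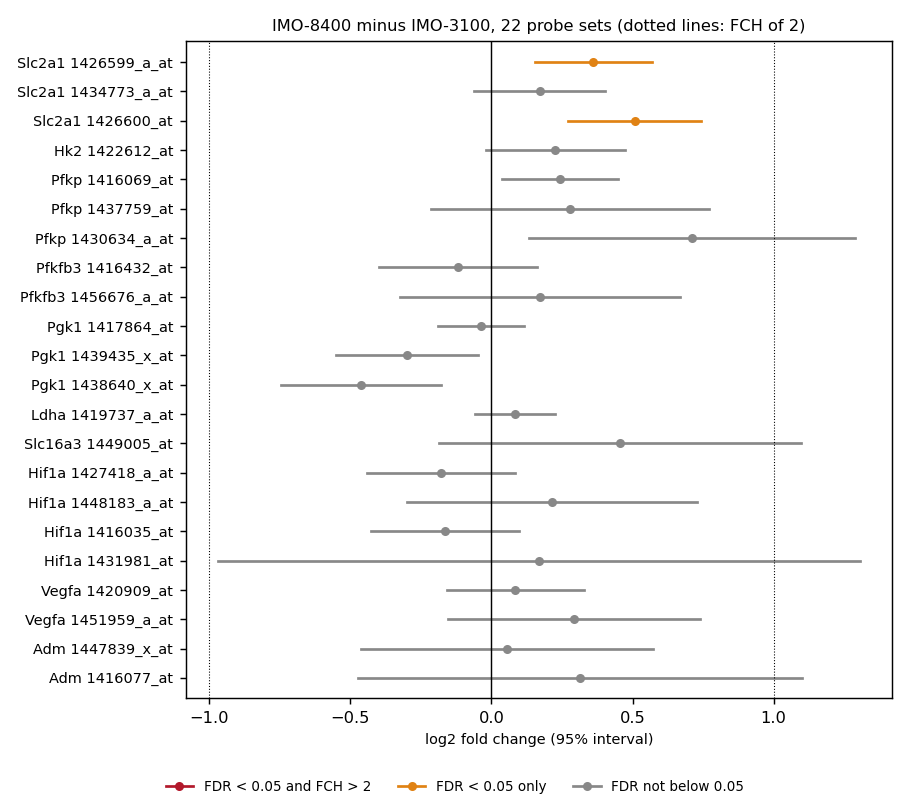
Log2 fold change IMO-8400 minus IMO-3100 (x axis) with 95% limma interval for each of the 22 probe sets (rows), n = 5 mice a group. Slc2a1 1426600_at (0.51) and 1426599_a_at (0.36) pass the FDR, both right of 0 and inside the dotted lines at FCH 2.

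Against naïve skin, 0 of the 10 genes were called in either direction with IMO-8400, where 4.71% of all genes were higher and 2.55% lower, and at an unadjusted p under 0.05 limma gave 2 higher and 2 lower. With IMO-3100, 1 was up-regulated, Pfkfb3 (5.7% of all genes), and 0 were down-regulated (4.82% of all genes, 4 of 10 lower at an unadjusted p under 0.05). The median log2 differences of the 10 were -0.07 with IMO-8400 and -0.09 with IMO-3100, where all genes had -0.01 and -0.07. Slc2a1 stayed above naïve by FDR at all 3 probe sets with IMO-8400 (log2 0.78, 0.58 and 0.38) and at none with IMO-3100 (0.28, 0.22 and 0.21). The 0.38 (FDR 0.0243) missed it without naïve mice 1 and 2 (0.0588), with the hair covariate (0.135), and without naïve mouse 5 (0.0537) or IMO-8400 mouse 1 (0.0619). The 0.28 and 0.22 with IMO-3100 had unadjusted limma p of 0.0246 and 0.0384. Without IMO-3100 mouse 1 the first of them passed the FDR (0.0363). By FDR alone, 2 of 10 were higher with IMO-8400, Slc2a1 and Pfkfb3 (10.5% of all genes), and 0 lower (8.59%). With IMO-3100, 1 was higher, Pfkfb3 (12.9% of all genes), and 4 were lower, Hk2, Ldha, Vegfa and Adm (16.8% of all genes). Hk2 (-0.36, FDR 0.0273) missed the FDR without naïve mouse 3, 4 or 5 or IMO-3100 mouse 4 or 5 (0.0525 to 0.0658), and Ldha (-0.22, FDR 0.0199) with the hair covariate (0.105) or without IMO-3100 mouse 4 (0.0507). The Adm value here is that of 1447839_x_at (-0.67, FDR 0.0492), which missed it in 4 of the alternatives with all arrays and without naïve mouse 3, 4 or 5 or IMO-3100 mouse 2, 4 or 5 (0.0506 to 0.174).

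Of the other glycolysis genes, 22 of 25 listed were tested, and with saline against naïve 4 were up-regulated and 2 down-regulated (median log2 0.09), where 8.94% and 8.51% of all genes were, so the count of down-regulated genes is near that background. Hk3, the hexokinase of leukocytes, rose most: 7.86 to 9.31 with IMO-8400, 9.20 to 10.13 with IMO-3100, 9.90 to 10.76 with saline and 3.38 to 8.22 in naïve mice (saline minus naïve 4.18, FCH 18.2). Naïve mice 1 and 2, which had the highest hair marker means, were the lowest for Hk3 (3.38 and 4.47). The other naïve mice lay between 7.59 and 8.22, and Hk3 was not tested without that pair. T cell, tested neutrophil and macrophage markers rose in the same comparison, and their part in the Hk3 value was not tested. Pfkfb4, a sister enzyme of Pfkfb3, was higher by 2.09 (FDR 8.65e-09), the neuronal-type glucose transporter Slc2a3 by 1.26 and the liver-type phosphofructokinase Pfkl by 1.06. The insulin-responsive transporter of fat and muscle Slc2a4 fell by 1.70 and Pfkfb2 fell by 1.18 on the log2 scale. Adipocyte markers fell too, and of 9 muscle markers 7 were lower by FDR (23.5% of all genes), with Myh4 and Myh2 past FCH 2. The part of these markers was not tested. By FDR alone, 7 of the 22 were higher and 7 lower (23.4% and 23.5% of all genes). Of the core pathway, Pkm was higher (0.48, FDR 0.00039), and Eno3 (-0.76), Pgam2 (-0.91) and Pfkm (-0.93) were lower by FDR. Gapdh, Aldoa, Tpi1 and Pgam1 were not past the FDR in the saline comparison or either antagonist comparison. All these core genes were chosen after their values were seen.

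Against saline, 2 of these 22 were up-regulated with IMO-8400, Slc2a4 (log2 1.40) and the muscle-type Pfkm (1.11), and 0 down-regulated (6 of 22 at an unadjusted p under 0.05 in limma), while with IMO-3100 Slc2a4 was up-regulated (1.06) and Pfkl down-regulated (-1.30, FDR 0.000103). The shares of all genes were 4.57% up-regulated and 4.16% down-regulated with IMO-8400, and 2.65% and 4.62% with IMO-3100. Median changes were 0.05 and -0.06. Of 9 muscle markers, 7 were higher by FDR with IMO-8400 and 2 with IMO-3100, and 0 were lower with either. Of 5 adipocyte markers, 3 were up-regulated with each antagonist and 0 down-regulated. The part of these tissue shifts in the Slc2a4 and Pfkm values was not tested. By FDR alone, 5 of the 22 were higher and 3 lower with IMO-8400 (16% and 14.4% of all genes), and 2 were higher and 5 lower with IMO-3100 (12.2% and 17.8% of all genes), the lower counts being near those shares. Pfkl, Pfkfb4 and the pyruvate kinase gene Pkm were among the lower in both. Pfkl was higher with IMO-8400 than with IMO-3100 by FDR alone (0.68, FDR 0.04), and none was called between the antagonists (3 higher and 0 lower at an unadjusted p under 0.05 in limma).

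Of the other hypoxia genes, 32 of 34 listed were tested, and with saline against naïve 4 were up-regulated and 0 down-regulated, with 3 lower at an unadjusted p under 0.05 in limma (median log2 -0.02). The shares of all genes were 8.94% and 8.51%, and 4 of 32 is not far from the first. The 4 were Car12 (1.30), a carbonic anhydrase, Egln3 (1.15), one of the prolyl hydroxylases that mark HIF-α, Bhlhe40 (1.08), a repressor of the clock, and Pgf, the placental growth factor. Pgf was near background in naïve skin and with both antagonists, and was at least 1.84-fold higher with saline. Car9, a second carbonic anhydrase named after its values were seen, was higher by FDR alone (0.84).

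With IMO-8400 against saline 2 of these 32 were down-regulated, Plod2 and Pgf, and with IMO-3100 5, Plod2, Angptl4, Pgf, Flt1 and Lox (Lox named as the fifth after its value was seen), where 4.16% and 4.62% of all genes were, so the IMO-8400 count is near that background. By limma 0 were up-regulated with either, with 6 and 4 higher at an unadjusted p under 0.05, and medians were -0.04 and -0.25. Plod2, a lysyl hydroxylase of collagen, was 2.86 to 5.24 with IMO-8400, 3.54 to 4.92 with IMO-3100, 5.09 to 6.83 with saline and 5.49 to 8.88 in naïve mice, so it fell below naïve skin too (-2.77 with IMO-8400 and -2.55 with IMO-3100 against naïve, FDR 0.00374 and 0.00391). Angptl4, a lipase inhibitor, was 8.96 to 10.82 with IMO-8400, 8.41 to 9.60 with IMO-3100, 10.16 to 11.57 with saline and 10.33 to 11.55 in naïve mice. Its difference from saline was -0.94 with IMO-8400 (FDR 0.062) and -1.78 with IMO-3100 (FDR 0.00206). Flt1, a receptor for VEGF-A and placental growth factor, had -0.42 (FDR 0.176) and -1.22 (FDR 0.00105), and its difference between the antagonists was 0.80 (FDR 0.0534). Of 6 endothelial markers, 1 was lower by FDR with IMO-3100 against saline, near the 17.8% of all genes, and 0 were higher. At an unadjusted p under 0.05 in limma, 5 were lower and 1 was higher (median -0.45). With IMO-8400 0 were lower or higher by FDR, and 1 was lower and 1 higher at that p (median 0.00). The part of these markers in the Flt1 values was not tested. Egln3 was lower by FDR alone with IMO-3100 (-0.92, FDR 0.0163) and not with IMO-8400 (-0.36, FDR 0.326). None of the 32 was called between the antagonists, with 8 higher and 2 lower at an unadjusted p under 0.05 in limma.

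**Figure D5:**
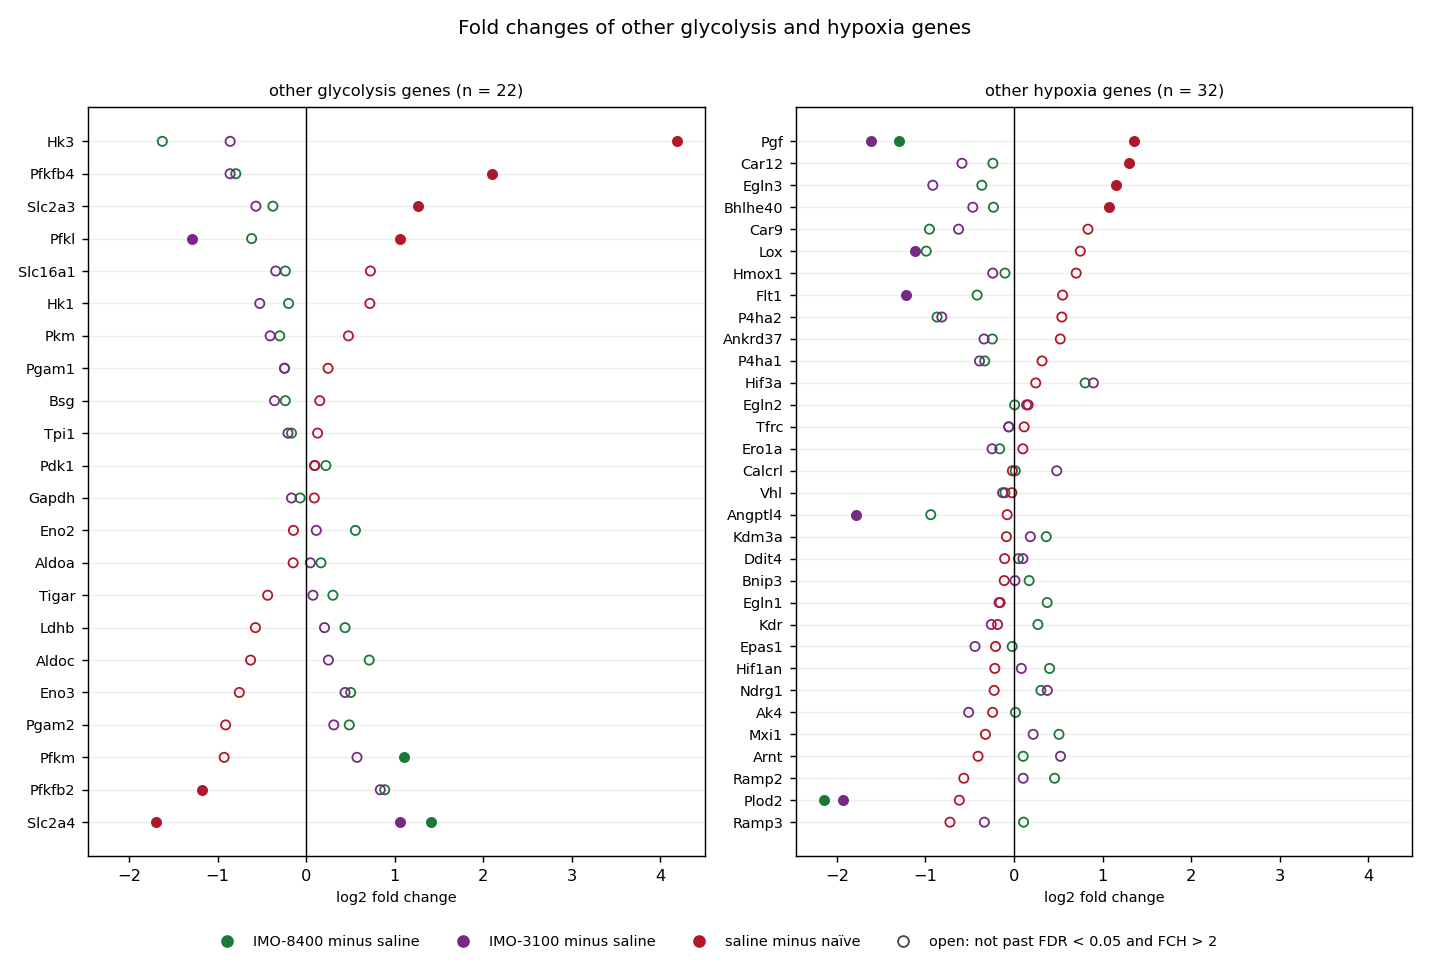
Log2 fold change (x axis) of the other 22 glycolysis genes and 32 hypoxia genes (rows, with the highest saline minus naïve at the top) in IMO-8400 minus saline, IMO-3100 minus saline and saline minus naïve; filled points pass FDR under 0.05 and FCH over 2. Hk3 (4.18) and Pfkfb4 (2.09) lie farthest right, Slc2a4 (-1.70) farthest left among the saline-naïve points of the glycolysis list, and Plod2 falls with both antagonists (-2.15 and -1.93).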

How the data were processed

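Full-thickness dorsal skin of 20 mice, 5 a group, was measured on the Affymetrix mouse4302 array. The deposited values are log2 expression values that the authors made with GCRMA after screening arrays with Harshlight and arrayQualityMetrics (GCRMA version not given in the sources used here), and they were used without further normalization. GCRMA shares information between probes and sets a common lowest value, so folds of dim probe sets are compressed. The labels name a Micro kit for the RNA and the methods a Mini kit, and the record of the series speaks of 2 doses of 1 antagonist. Groups were taken from the sample labels. No scan dates were used here, so batches were not analysed.

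Symbols came from the platform annotation: 34958 probe sets had 1 symbol, 932 several and 9211 none, and 34754 were matched by Entrez identifier. Probe sets above 2 in at least 3 arrays with SD over 0.1 were tested (30960 probe sets, 13909 genes). The 4 group means were modelled with limma 3.58.1 under R 4.3.3, with Benjamini-Hochberg adjustment over all tested probe sets, after being tested on simulated data. DEGs had FDR under 0.05 and FCH over 2. Intervals are 95% limma intervals. The number of arrays limits the precision, and no 2 arrays were identical.

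The 10 members and all lists were chosen with earlier results of these data known. Named genes are all members and, in each wider list and each comparison with saline or of saline with naïve, up to 4 DEGs a direction with the largest change. Alternatives were the filter left off or made stricter (over 4 on 5 or more arrays), a floor of 4, arrays aligned at the 75th percentile, quantile normalization, the compared groups alone, a trended robust prior, the mean of a gene's probe sets, no naïve mice 1 and 2, the hair marker mean as a covariate, and each array left out.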

Additional observations from a re-analysis of the deposited data

Results flagged for a closer look

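In 88 groups of 5 mice (22 probe sets in 4 groups) 6 had a mouse far from the others by Dixon's test at 95%, where chance gives about 1 in 20. Pfkfb3 1456676_a_at, a probe set close to the lowest value of the table, accounted for 3 of them: IMO-8400 mouse 1 at 3.64 where the others lay between 2.58 and 2.71, IMO-3100 mouse 1 at 2.94 where the others lay between 2.58 and 2.61, and saline mouse 3 at 3.94 where the others lay between 2.58 and 2.60. Pgk1 1417864_at was 13.70 in IMO-3100 mouse 3, at the level of the saline mice, where the other IMO-3100 mice lay between 13.37 and 13.46. Vegfa 1420909_at was 8.41 in IMO-8400 mouse 5, with the others between 8.69 and 8.79. Slc16a3 1449005_at was 10.60 in the same IMO-8400 mouse 5, with the others between 10.16 and 10.25. That mouse also had the highest hair marker mean of the 15 mice given IL-23, at 7.02.

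Slc2a1 differed between the antagonists when they were set against each other directly. The difference IMO-8400 minus IMO-3100 was 0.51 at 1426600_at (FDR 0.0222) and 0.36 at 1426599_a_at (FDR 0.0491) in limma, with higher levels in 5 of 5 IMO-8400 mice than in every IMO-3100 mouse. At 1434773_a_at it was 0.17 (FDR 0.395), and the groups overlapped.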

How the results depend on the processing

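No value past its FDR in the model used reversed its direction under any alternative. Of the values of single probe sets, 1110 kept their side of the FDR, 18 moved inside it and 42 left it over the alternatives that kept all groups' mice or dropped a pair, and 1226, 14 and 80 did so when 1 array was left out. The following counts of genes moved by more than 1.5 times with another model or with mice left out. With saline against naïve, the hair marker mean as a covariate gave 0 of 10 genes up-regulated, where 1 was, and 3 higher by FDR alone (Hif1a, Slc2a1 and Pfkfb3), where 6 were. That covariate was spread in naïve mice and flat in saline mice, so it shares its variation with the contrast. With IMO-3100 against naïve, 0 were up-regulated and 1 down-regulated (Adm) with the mean of a gene's probe sets, without naïve mice 1 and 2, and with the hair covariate, where 1 and 0 were. With IMO-8400 against naïve, the hair covariate gave 1 down-regulated (Adm), where 0 were. With IMO-3100 against saline, a common 75th percentile gave 1 gene higher by FDR alone (Pfkfb3), where 0 were. Leaving out 1 array in turn, the genes up-regulated with IMO-3100 against naïve ranged from 0 to 1, those down-regulated with IMO-3100 against saline from 1 to 2 (without IMO-3100 mouse 5, Adm was lost) and those higher with it by FDR alone from 0 to 1 (Pfkfb3, without saline mouse 2 or IMO-3100 mouse 4). Genes under the FDR ranged from 6 to 7 higher with saline against naïve, from 4 to 6 lower with IMO-8400 against saline, where 5 were, and from 6 to 8 lower with IMO-3100 against saline, where 8 were. Past both thresholds, 2 were down-regulated and 0 up-regulated with IMO-8400 against saline without any 1 array. With all arrays kept, the lower genes under the FDR also ranged from 4 to 6 with IMO-8400 and from 6 to 8 with IMO-3100, and the mean of a gene's probe sets gave 3 down-regulated with each antagonist, Hif1a besides Adm and Slc16a3. Slc2a1 between the antagonists at 1426599_a_at missed the FDR with a common 75th percentile (0.0657), the mean of its probe sets (0.0664) and the hair covariate (0.0594). The cause of these moves was not tested. No paired analysis was possible because the labels give no replicate numbers shared between groups. Signals near the lowest value, as for Pfkfb3 1456676_a_at, limit what those probe sets can show.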
